A study of Homo sapiens with 17 samples.

Results

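The 168 genes described here were those of the table whose symbol begins with SLC and a digit, which is the human naming for solute carriers, out of 9699 genes listed. By their family, 163 of them were carriers, while SLC2A4RG, SLC4A1AP, SLC7A6OS, SLC9A3R1 and SLC9A3R2 carry the letters of a carrier in their symbol but are regulators, neighbours or partners of one. The carriers included 27 of the largely mitochondrial SLC25 family, 27 amino acid carriers and 19 members of the nucleotide sugar family SLC35. A further 11 were zinc importers of SLC39 and 6 were zinc exporters of SLC30. There were also 8 carriers of glucose and other hexoses, 7 sodium-proton exchangers, 6 carriers of the monocarboxylate family, 5 bicarbonate transporters, 4 cation-chloride cotransporters, the iron importer SLC11A2 and 42 others.

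Solute carriers are membrane proteins that move sugars, amino acids, ions, nucleotides and vitamins across membranes, by facilitated diffusion, by cotransport with an ion or by exchange. Most families sit in the plasma membrane or in the membranes of the endoplasmic reticulum, Golgi and lysosome, and their mRNAs are translated at the endoplasmic reticulum. The SLC25 family differs, since most of its members sit in the inner mitochondrial membrane and are made in the cytosol. Dividing cells are known to draw on glucose, glutamine and essential amino acid carriers for growth.

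BJ cells, human fibroblasts immortalized with hTERT, were profiled by RNA-Seq for transcript levels and by Ribo-Seq, which sequences the mRNA fragments protected by ribosomes, under cycloheximide. All cells shared hTERT, and the proliferating cells were grown with serum. Quiescent cells were depleted of serum. Pre-senescent and senescent cells carried a tamoxifen-inducible RASG12V, induced with 4-OHT-tamoxifen during 5 days for pre-senescence and 14 days for senescence. The cells labelled transformed carried, among other changes, hTERT, p16INK4A-KD, SV40 small T and the vector pBabe-puro-RASG12V. The 17 samples (9 RNA-Seq and 8 Ribo-Seq) comprised, for RNA-Seq and Ribo-Seq in turn, 3 and 3 of proliferation, 2 and 2 of quiescence, 2 and 1 of pre-senescence, and 1 and 1 each of senescence and of the cells labelled transformed.

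Values were FPKM, read counts scaled to the length of the transcript and to the reads of the library, with 1 column for each condition, assay and sequencing run, and values under 1 had been set to 1, so a fold against 1 is a lower bound. Quiescence and pre-senescence were compared with the proliferation column of run 1, senescence and the library labelled transformed with that of run 2, so each pair of comparisons shares a control. Translation efficiency (TE) was the ratio of Ribo-Seq to RNA-Seq FPKM. A gene was said to rise or fall when it changed at least 2-fold, given an FPKM of at least 4 in at least 1 of the columns compared (for TE, RNA-Seq FPKM of at least 4 in both columns and Ribo-Seq FPKM of at least 4 in at least 1). The table holds no replicate columns, so no difference has a replicate check or a p-value. Between the proliferation columns of the 2 runs the log2 differences had an SD over all genes of 0.63 in RNA-Seq, 0.85 in Ribo-Seq and 0.56 in TE.

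The column names and the condition labels of the senescence and run 2 proliferation Ribo-Seq samples disagreed, and the names were used. In the Ribo-Seq column named for senescence the proliferation gene MKI67 was at 1.00 FPKM and the cell cycle inhibitor CDKN1A at 547.8, against 43.0 and 222.8 in the column named for proliferation. HRAS RNA was high in every column, at 2415 FPKM in proliferation of run 1, 2102 in pre-senescence, 1284 in proliferation of run 2 and 2087 in senescence, and lowest, at 311.5, in the library labelled transformed. CDKN2A RNA, which encodes p16INK4A, was at 12.6 FPKM in that library, above the 6.75 of its control but below the 17.2 of proliferation of run 1. Its footprints were at 5.51 FPKM, below the 8.92 and 13 of these controls. The direction in RNA thus depended on the control, and the knockdown in the label was not tested. Fibroblast markers were all listed, 9 of 9, and 6 of them were at least 2-fold higher in proliferation of run 2 than of run 1 in RNA-Seq (COL1A1 1328 against 371.2 FPKM), a difference between the controls of the 2 runs.

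In senescence the ribosome footprints on solute carriers went up more often than their transcripts. Among 145 members that passed the filter in Ribo-Seq, 57 rose and 10 fell, while of all genes 11.8% rose and 16.8% fell, and the members' median log2 change was 0.70 against -0.10 over all genes. In RNA-Seq 15 of 143 members rose and 11 fell, against 7.47% and 12.8% of all genes, with a median of 0.25 against 0.01. In bulk samples like these, a change in the number of cells of a kind and a change in RNA per cell cannot be told apart. The TE of 18 of 119 members rose and that of 0 fell, against 2.38% and 6.16% of all genes, with a median of 0.56 against -0.06. Measured against the proliferation column of run 1 in place of run 2, 59 members rose in Ribo-Seq and 29 in TE, and 21 and 5 fell. No share of all genes was counted against that control.

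The other conditions moved fewer carriers in Ribo-Seq and TE, while the library labelled transformed moved about as many in RNA-Seq. In quiescence 10 of 139 members rose and 1 fell in RNA-Seq (3.99% and 2.50% of all genes), and 21 of 140 rose and 5 fell in Ribo-Seq (8.69% and 8.48%). Quiescence lowered the TE of 4 of 129 members and raised that of 0 (3.05% and 2.26%). In pre-senescence 6 of 140 members rose and 4 fell in RNA-Seq (1.67% and 1.92%), 23 of 142 rose and 11 fell in Ribo-Seq (6.64% and 10.1%), and 9 of 123 rose and 6 fell in TE (3.66% and 7.48%). For the library labelled transformed, 17 of 145 members rose and 10 fell in RNA-Seq (4.78% and 5.06%), 16 of 145 rose and 13 fell in Ribo-Seq (5.07% and 7.41%), and 1 of 116 rose and 1 fell in TE (0.535% and 1.31%). The median log2 change of the members stayed between 0.09 and 0.23 in RNA-Seq and Ribo-Seq of these 3 conditions, and between 0.01 and 0.20 in TE. For scale, between the proliferation columns of the 2 runs 8 members were at least 2-fold higher in run 2 and 11 lower in RNA-Seq (4.71% and 2.91%), 14 and 19 in Ribo-Seq (9.97% and 8.41%), and 4 and 5 in TE (4.20% and 2.81%).

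The TE changes of the mitochondrial family and of the other carriers lay apart, a difference that 1 column per condition does not allow to be tested. In senescence all 18 TE rises were of carriers outside SLC25, out of 90 that passed, with a median log2 change of 0.72 and 85 of the 90 above 0. None of 25 SLC25 members reached 2-fold in either direction, their median was -0.10, and 7 of 25 were above 0. Of all genes 2.38% rose and 6.16% fell in TE there. In pre-senescence the other carriers had a median of 0.30, with 9 of 94 rising and 3 falling, and SLC25 a median of -0.22, with 0 of 25 rising and 2 falling. The shares of all genes were 3.66% rising and 7.48% falling, so the SLC25 falls were near that share. The 4 members whose TE fell in quiescence were all of SLC25, SLC25A36, SLC25A44, SLC25A6 and SLC25A26, out of 25 with a median of -0.36, while 0 of 100 other carriers rose or fell around a median of 0.07. Over all genes 2.26% rose and 3.05% fell in that comparison. For the library labelled transformed the medians were -0.12 over 26 SLC25 members and 0.10 over 86 other carriers. The plot of TE changes by family shows the gap widest in senescence, where the cloud of other carriers lies almost wholly above 0.

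**Figure D1:**
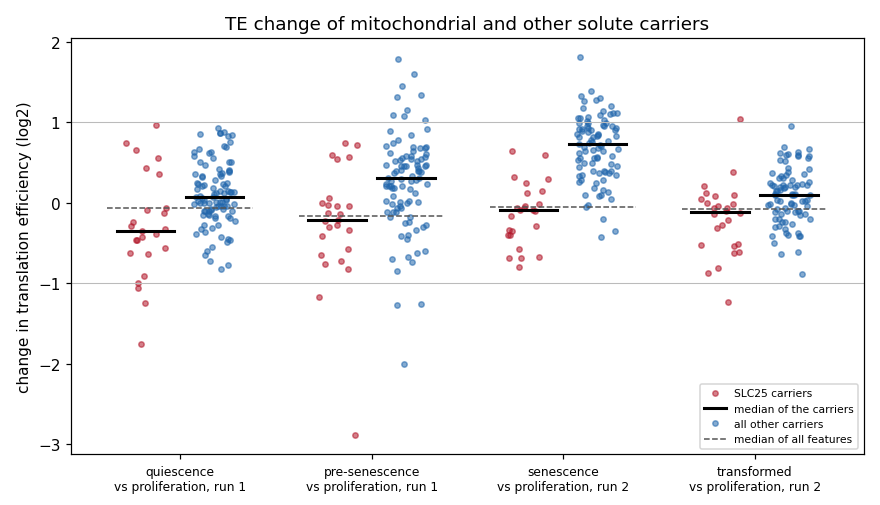
Change in translation efficiency (log2, vertical axis) of each SLC25 carrier (red) and each other carrier (blue) in the 4 comparisons, with the median of each set as a black bar and that of all genes as a dashed line; grey lines mark 2-fold. In senescence the other carriers centre on 0.72 and the SLC25 carriers on -0.10.

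In senescence and quiescence the medians kept this order against the control of the other run. With the proliferation column of run 1, the senescence medians were 0.76 over 90 other carriers, of which 29 rose and 1 fell, and -0.30 over 25 SLC25 members, of which 0 rose and 3 fell. Shares of all genes were not counted against that control. In quiescence, against the proliferation column of run 2, they were 0.10 over 98 other carriers and -0.27 over 25 SLC25 members. Between the 2 proliferation columns themselves the medians were -0.09 over 95 other carriers and -0.21 over 26 SLC25 members. Fibroblast markers fell in the same senescence comparison, 7 of 9 in RNA-Seq and 6 of 9 in Ribo-Seq, and their part in the carriers' change was not tested.

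Footprint levels in senescence showed the same families apart. Of the carriers outside SLC25, 55 of 114 rose and 7 fell in Ribo-Seq, with a median log2 change of 0.97, and of SLC25 members 2 of 26 rose and 2 fell, with a median of 0.02. Of all genes 11.8% rose and 16.8% fell, which are the shares to set beside each family here. Among the families with more than 1 member the highest share was that of SLC35, with 11 of 17 members rising and all 17 above 0, followed by the sodium-proton exchangers with 3 of 5. Of the 5 genes that are no carriers, 0 rose and SLC2A4RG, a DNA-binding regulator of SLC2A4, fell, from 30.8 to 8.51 Ribo-Seq FPKM. In the plot of senescence against proliferation footprints most blue points lie above the diagonal and many above the 2-fold line.

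**Figure D2:**
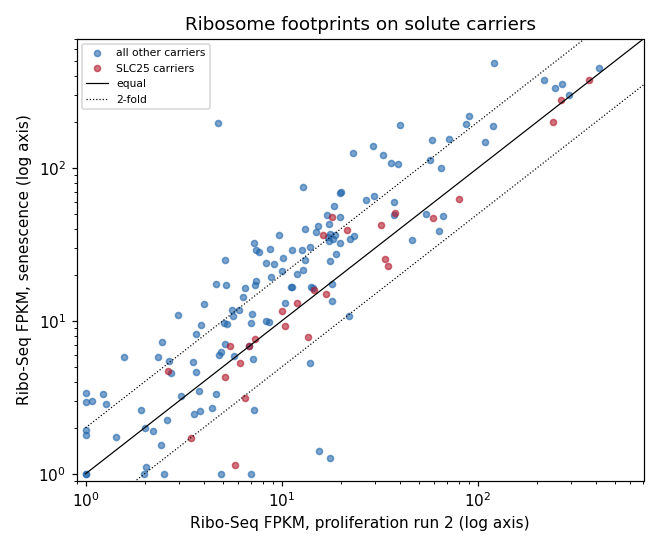
Ribo-Seq FPKM of each carrier in proliferation of run 2 (horizontal, log axis) and in senescence (vertical, log axis), SLC25 in red and all other carriers in blue, with lines for equal values and for 2-fold. Of the other carriers 55 lie past the upper 2-fold line with at least 4 FPKM, and of SLC25 carriers 2.

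Among mitochondrial carriers the most abundant were SLC25A5 and SLC25A6, which exchange ADP for ATP across the inner membrane, and SLC25A3, which brings in phosphate for ATP synthesis. The bases around their transcription starts are shown because mRNAs of the translation machinery are known to begin with a pyrimidine tract that makes their translation sensitive to growth conditions. Each window holds 15 bases before the start and 15 from it on, from RefSeq on GRCh38.p14, with the run of pyrimidines that begins at the start base in capitals.
SLC25A6, chrX:1392099-1392128, minus strand: cggtggctgctccgtCCTTTCggtccaggc
SLC25A5, chrX:119468429-119468458, plus strand: atttgcttcgctccgCCCCgcagcgccgga
SLC25A3, chr12:98593671-98593700, plus strand: cggaggacgtccggcCTCTgtgagccgcaa
SLC25A22, chr11:798267-798296, minus strand: gccgagcggacgcgcCTCCCCgcctaggtg
SLC25A4, chr4:185143251-185143280, plus strand: tgcgggccaggcggcggccccctagcgtcg

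A run of at least 4 pyrimidines began at the start of the first 4 of these genes and not of SLC25A4. These were the 4 such genes among the 23 SLC25 members matched to RefSeq (17.4%), against 8 of 114 matched carriers outside the family (7.02%) and 2526 of all 35116 RefSeq promoter entries (7.19%). The members with such a run had a median TE change in quiescence of -0.52, from -1.06 to 0.74, and the 19 without it one of -0.29, from -1.76 to 0.97, so the ranges overlapped. A match in these letters is a description and was not tested as an element.

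SLC25A6 RNA was 351.4 FPKM in proliferation of run 1, 399.0 in quiescence and 362.2 in pre-senescence, and 218.2 in proliferation of run 2, 292.7 in senescence and 248.9 in the library labelled transformed. Its footprints were 556.8, 303.5 and 526.8 in the run 1 columns and 266.1, 279.9 and 300.0 in those of run 2, so its TE fell in quiescence (-1.06) and changed by -0.12 in pre-senescence. SLC25A5 had 517.96 footprint FPKM in proliferation of run 1, 236.1 in quiescence and 383.5 in pre-senescence, with TE changes of -0.57 and -0.41, below the 2-fold line. SLC25A4, the ADP/ATP carrier of heart and muscle, was scarce, at 5.26 RNA FPKM in proliferation of run 1 and 13.3 in that of run 2, and its TE change in quiescence was opposite in sign (0.97). In senescence SLC25A4 RNA reached 26.9 FPKM, a log2 change of 1.02, while SLC25A5 and SLC25A6 stayed within -0.26 and 0.42. SLC25A3 RNA lay between 202.7 and 241.2 FPKM in all 6 columns, and its TE change was largest in quiescence (-0.47). Bars of TE per column show SLC25A6 below 0 in quiescence, and SLC25A4 at its highest there.

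**Figure D3:**
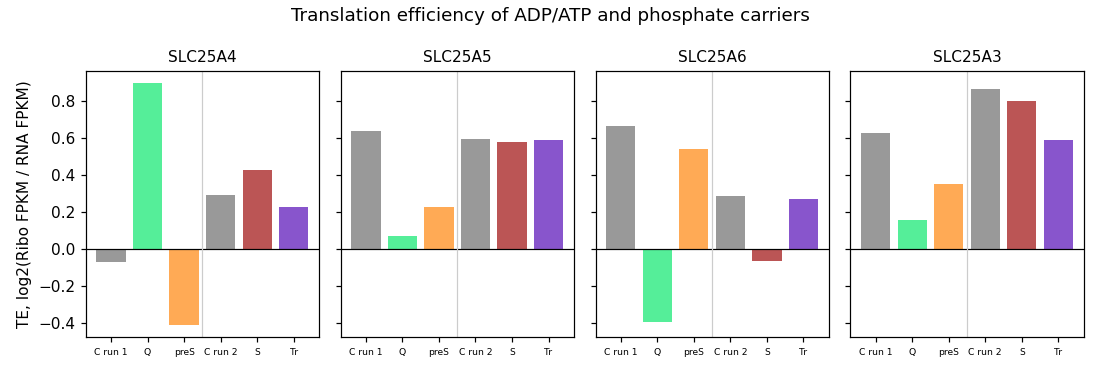
Translation efficiency, log2 of Ribo-Seq FPKM over RNA-Seq FPKM (vertical axis), of SLC25A4, SLC25A5, SLC25A6 and SLC25A3 in each of the 6 columns (C, proliferation; Q, quiescence; preS, pre-senescence; S, senescence; Tr, library labelled transformed), run 1 left and run 2 right of the grey line. SLC25A6 falls by 1.06 from proliferation of run 1 to quiescence while SLC25A4 differs by 0.97 in the opposite direction.

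The other mitochondrial carriers moved mostly below 2-fold, with exceptions at low levels. SLC25A36, which carries pyrimidine nucleotides, had the largest TE fall of quiescence (-1.76), with 14.9 footprint FPKM in proliferation of run 1 and 6.14 in quiescence, but 5.44 in proliferation of run 2. The TE of SLC25A44, a branched-chain amino acid carrier, fell by 1.24 on the log2 scale, with 8.99 and 3.30 footprint FPKM in run 1 and 2.62 in proliferation of run 2. In both, the run 2 control was below the quiescence column. SLC25A26, the S-adenosylmethionine carrier, had 6.18 footprint FPKM in proliferation of run 1, 3.61 in quiescence and 1.01 in pre-senescence, the lowest TE change of any member there (-2.89). SLC25A30 was the other member of the family whose TE fell in pre-senescence (-1.18, named after its value was seen). In the library labelled transformed SLC25A36 was the 1 member whose TE rose (1.04) and SLC25A38, a glycine carrier of heme synthesis, the 1 whose TE fell (-1.24).

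Transcripts of SLC25A1, the citrate carrier that feeds lipid synthesis, were at 43.4 FPKM in proliferation of run 1, 102.4 in quiescence and 47.2 in pre-senescence, a rise of 1.24 in quiescence, and its footprints rose by 1.67. In senescence SLC25A1 had 92.6 RNA FPKM against 66.9 but 47.3 footprint FPKM against 59.4, the lowest TE change of the family (-0.80). SLC25A29, a carrier of basic amino acids, fell in senescence from 5.32 to 1.20 RNA FPKM (-2.15) and in pre-senescence from 5.02 to 2.29 (-1.13). The RNA of SLC25A10, the dicarboxylate carrier, was 58.1 FPKM in proliferation of run 1 and 30.4 in quiescence (-0.93). Of the mitoferrins, which bring iron into mitochondria, SLC25A37 rose in the library labelled transformed from 2.73 to 8.59 RNA FPKM (1.65), and SLC25A28 stayed between 10.8 and 15.2 RNA FPKM in all 6 columns. A list of 6 other mitochondrial proteins, with the porins VDAC1 to VDAC3, the pyruvate carrier subunits BRP44 and BRP44L and the matrix protein PPIF, had 0 TE changes of 2-fold in senescence (median -0.12), quiescence (-0.18) and the library labelled transformed (0.07), and 1 fall in pre-senescence (median -0.56), that of BRP44L (-1.50).

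Of all members, SLC16A6 and SLC6A15 rose in RNA-Seq in all 4 comparisons, and SLC20A1 and SLC2A6 in 3. In none did 118 of 168 members change 2-fold, 14 of these because they passed no filter. Such counts were not made over all genes, so there is no share to set them against. SLC16A6, a monocarboxylate family member linked to ketone body export, had 1.90 RNA FPKM in proliferation of run 1, 8.09 in quiescence and 11.8 in pre-senescence, and 1.38 in proliferation of run 2, 34.1 in senescence and 18.9 in the library labelled transformed. Both controls were lowest, and senescence was the highest of the 6. Its log2 changes were 2.09, 2.64, 4.63 and 3.78 in the order quiescence, pre-senescence, senescence and library labelled transformed. Footprints on SLC16A6 followed, from 5.23 and 4.72 FPKM in the controls to 197.2 in senescence (5.38), the largest footprint rise of any member.

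SLC6A15, a sodium-coupled carrier of branched-chain amino acids and proline, had 7.24 RNA FPKM in proliferation of run 1, 30.9 in quiescence and 52.4 in pre-senescence, and 2.93 in proliferation of run 2, 7.70 in senescence and 9.86 in the library labelled transformed. It was highest in pre-senescence, at day 5 of RAS induction, whereas its level at day 14 was near that of the run 1 control. The log2 changes were 2.09 in quiescence, 2.86 in pre-senescence, 1.39 in senescence and 1.75 in the library labelled transformed. The phosphate importer SLC20A1 had 123.1, 204.2 and 286.0 RNA FPKM in proliferation, quiescence and pre-senescence of run 1, and 125.9, 270.3 and 337.1 in proliferation, senescence and the library labelled transformed of run 2. Its controls thus lay close together, with every other column above them, and its footprints rose in all 4 comparisons (1.01, 2.11, 2.01 and 1.79). SLC2A6, a hexose carrier of intracellular membranes, was at 6.07, 19.2 and 8.45 RNA FPKM in the same columns of run 1 and at 10.2, 31.3 and 29.9 in run 2, with 2-fold rises in all but pre-senescence (0.48).

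**Figure D4:**
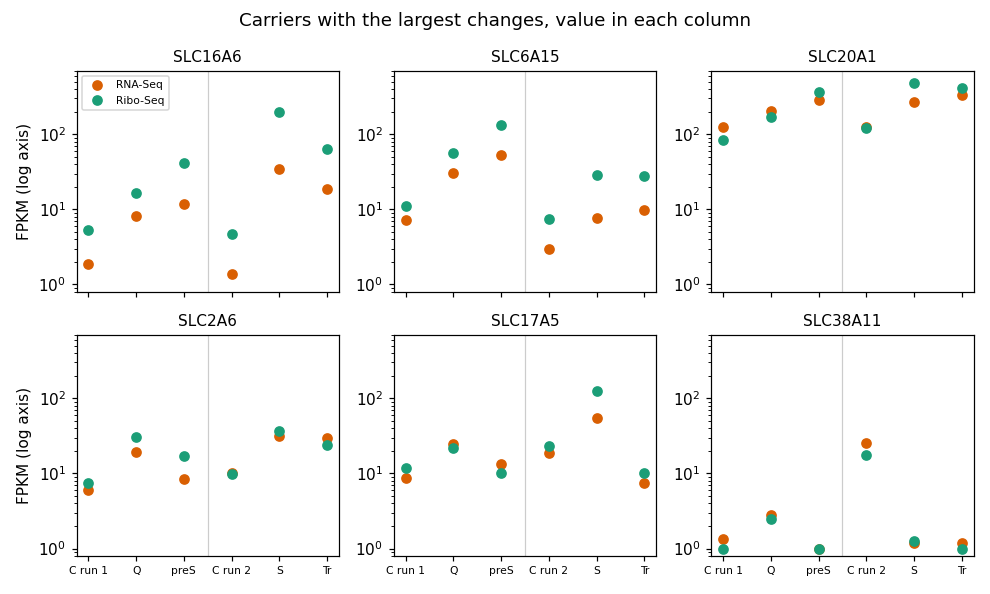
FPKM (log axis) in RNA-Seq (orange) and Ribo-Seq (green) of 6 carriers in each column (C, proliferation; Q, quiescence; preS, pre-senescence; S, senescence; Tr, library labelled transformed). SLC16A6 lies lowest in both proliferation columns and reaches 34.1 RNA and 197.2 Ribo FPKM in senescence, whereas SLC38A11 is high in the run 2 proliferation column alone.

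Senescence and the library labelled transformed, which share a control, differed in sign for a few carriers. SLC17A5, the lysosomal exporter of sialic acid, had 18.5 RNA FPKM in proliferation of run 2, 54.5 in senescence and 7.57 in the library labelled transformed, and 8.71, 24.7 and 13.2 in the run 1 columns. Senescence had the highest SLC17A5 of the 6 columns in both assays, with footprints at 125.7 FPKM against 23.2. SLC16A4, an orphan of the monocarboxylate family, had 12.3, 42.4 and 4.38 RNA FPKM in the run 2 columns, and 4.68, 11.7 and 9.23 in those of run 1. Since its run 2 control was above its quiescence level, the quiescence rise of 1.32 was -0.08 against the other control. SLC22A18, an organic cation transporter-like gene known for imprinting, had 5.64, 22.4 and 3.86 RNA FPKM in the run 2 columns and rose in quiescence as well, from 5.02 to 13.0 FPKM (1.37).

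Large falls were those of SLC38A11, SLC8A1, SLC16A7, SLC43A3 and SLC1A4. SLC38A11, an amino acid carrier relative, had 25.2 RNA FPKM in proliferation of run 2 and between 1.00 and 2.77 in every other column, the run 1 control included. Its log2 changes of -4.42 in senescence and -4.39 in the library labelled transformed therefore rested on the run 2 control. SLC8A1, the sodium-calcium exchanger, had 6.50 and 6.54 RNA FPKM in the 2 controls, 5.78 in quiescence, 3.73 in pre-senescence, 2.27 in the library labelled transformed and the floor of 1.00 in senescence, at least 6.54-fold lower. Footprints on SLC8A1 fell from 15.6 to 1.40 FPKM in senescence (-3.48). SLC16A7, a high-affinity pyruvate and lactate carrier, had 7.54 RNA FPKM in proliferation of run 2, 3.57 in senescence and 1.10 in the library labelled transformed (-2.78). SLC43A3, grouped by family with the amino acid carriers but a carrier of purine bases, had 20.9, 4.52 and 9.78 RNA FPKM in the run 2 columns, and 46.6 in proliferation of run 1.

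The amino acid carriers moved in both directions. In senescence 1 of 23 rose and 5 fell in RNA-Seq, with a median log2 change of -0.25, against 7.47% and 12.8% of all genes. The falls include SLC38A11 (-4.42), whose change rested on the run 2 control, and SLC43A3 (-2.21), grouped here by family but a carrier of purine bases. In Ribo-Seq 8 of 22 rose and 4 fell, with a median of 0.43, against 11.8% and 16.8%, so the share that fell was near that of all genes. In TE 4 of 15 rose and 0 fell, with a median of 0.90, against 2.38% and 6.16%. SLC7A11, the cystine importer that supplies glutathione synthesis, showed the contrast. Its RNA was 9.82 FPKM in proliferation of run 2, 17.8 in senescence and 24.8 in the library labelled transformed, and its footprints 29.2, 138.4 and 116.9. The senescence TE change was 1.39, and the footprint rises were 2.25 and 2.00. In the run 1 columns SLC7A11 footprints were 73.6 in proliferation, 77.1 in quiescence and 33.7 in pre-senescence, so the 2 controls differed more than 2-fold in this gene.

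SLC38A1, a sodium-coupled glutamine importer, had 21.6 RNA FPKM in proliferation of run 2, 37.5 in senescence and 8.94 in the library labelled transformed, and its footprints rose in senescence from 32.8 to 122.2 FPKM (TE 1.10). Its relative SLC38A2 was at 235.6, 138.0 and 151.8 RNA FPKM in these columns and at 415.7, 454.2 and 357.1 footprint FPKM, a TE change of 0.90 in senescence. SLC7A1, importer of arginine and lysine, had RNA of 81.2, 55.6 and 52.4 FPKM and footprints of 331.8, 381.7 and 534.0 FPKM in proliferation, quiescence and pre-senescence, so fewer transcripts carried more footprints (TE 0.75 and 1.32). SLC7A6, which exchanges basic for neutral amino acids, had TE changes of 0.93 in quiescence and 1.27 in senescence. The neutral amino acid exchanger SLC1A5 did not reach 2-fold at any level in any comparison, with 122.3 to 270.8 RNA FPKM.

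SLC1A4, a carrier of serine, alanine and cysteine, fell in pre-senescence from 9.19 to 2.79 RNA FPKM (-1.72) and in senescence from 6.24 to 1.46 (-2.10), and had 16.6 in quiescence. SLC6A9, the glycine carrier, had 12.1 RNA FPKM in proliferation of run 1, 22.9 in quiescence and 3.42 in pre-senescence, and footprints of 11.3, 23.3 and 3.31. It was thus highest under serum depletion and lowest under RAS at day 5. SLC7A8, a neutral amino acid exchanger, rose in quiescence from 1.18 to 5.90 RNA FPKM (2.32), the largest RNA rise of a member in that comparison, but its footprints were 2.21 and 4.00 FPKM. SLC7A2, a cationic amino acid carrier, was the 1 member whose RNA fell in quiescence, from 5.76 to 2.68 FPKM (-1.10), while SLC38A4, a further neutral amino acid carrier, had 4.89 RNA FPKM in proliferation of run 1 and 2.59 in pre-senescence (-0.92).

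SLC7A5, the leucine importer whose partner is SLC3A2, had 117.4 RNA FPKM in proliferation of run 1, 81.0 in quiescence and 73.0 in pre-senescence, and 52.4 in proliferation of run 2, 35.0 in senescence and 78.2 in the library labelled transformed. No change reached 2-fold against its own control, but the controls differed from each other by that much (-1.16 for run 2 against run 1). The same held for SLC3A2, with 97.0 and 48.0 RNA FPKM in the controls (-1.02), and for SLC7A11 (-1.03). These are targets of the amino acid response, in which the factor ATF4 raises genes of amino acid supply. From a list of 7 other genes of that response and of glutathione synthesis, 3 were at least 2-fold lower in proliferation of run 2 than of run 1 in RNA-Seq (ASNS 24.0 against 53.1, TRIB3 7.49 against 34.1 and DDIT4 8.99 against 29.6 FPKM). Footprints on ATF4 itself were 13.1 FPKM in proliferation of run 2 and 65.7 in that of run 1. Of the same list 2 of 7 rose in RNA-Seq in quiescence (CHAC1 and DDIT4), 0 in pre-senescence, 2 in senescence (CHAC1 and TRIB3) and 1 in the library labelled transformed (CHAC1), and 0 fell.

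**Figure D5:**
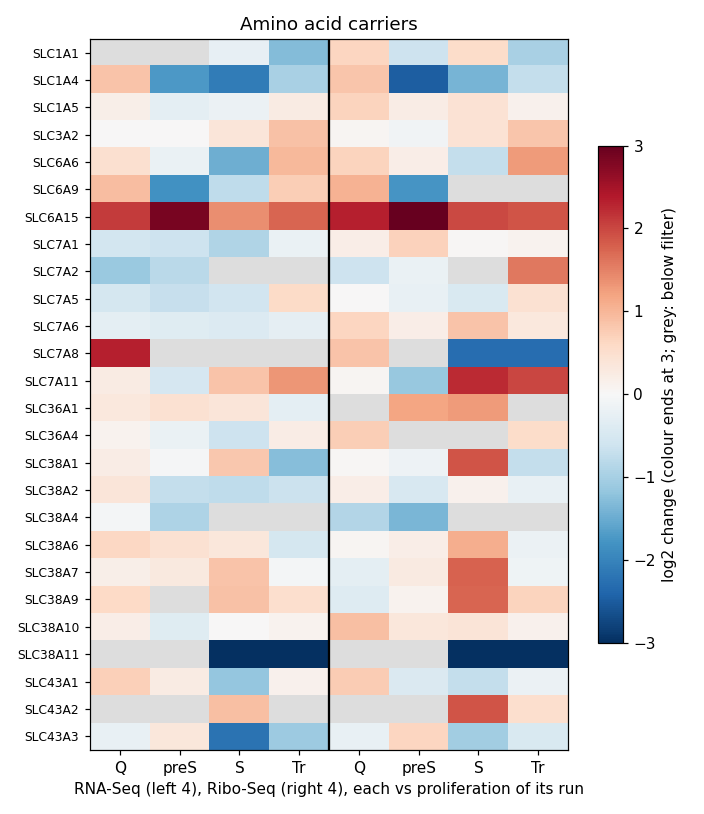
Log2 change of the 26 amino acid carriers that passed a filter (rows) in RNA-Seq (left) and Ribo-Seq (right) for quiescence (Q), pre-senescence (preS), senescence (S) and the library labelled transformed (Tr), red for higher and blue for lower than proliferation of the same run, grey for values below the filter. SLC6A15 is red throughout, and in senescence SLC7A11 and SLC38A1 are redder in Ribo-Seq (2.25 and 1.90) than in RNA-Seq (0.86 and 0.80).

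The core of the element through which ATF4 acts, TGATGNAA, was looked for on both strands of the 250 bases before and 50 after each RefSeq start. It was found in 3 of the 22 amino acid carriers with an entry, SLC38A1, SLC7A1 and SLC3A2, and in 1270 of 35116 entries (3.62%). The 3 windows, with the match in capitals, are printed because these genes are named among the amino acid carriers above. In the SLC3A2 window the match reads on the opposite strand.
SLC38A1, chr12:46266502-46266531, minus strand: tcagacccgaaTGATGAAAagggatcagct
SLC7A1, chr13:29595663-29595692, minus strand: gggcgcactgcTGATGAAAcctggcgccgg
SLC3A2, chr11:62881719-62881748, plus strand: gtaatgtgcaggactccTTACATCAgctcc

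These 3 genes did not move together. In senescence their RNA changes were 0.80 for SLC38A1, -0.90 for SLC7A1 and 0.36 for SLC3A2, and in the library labelled transformed -1.27, -0.21 and 0.88.

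Among carriers of glucose and lactate the abundant SLC2A1 and SLC16A3 stayed below 2-fold in the RNA-Seq comparisons given here. SLC2A1, the basal glucose importer, had 123.6 RNA FPKM in proliferation of run 1, 125.1 in quiescence and 67.9 in pre-senescence, and 87.5 in proliferation of run 2, 86.0 in senescence and 149.6 in the library labelled transformed. None of these passed 2-fold. The high-affinity importer SLC2A3 rose in senescence in Ribo-Seq, from 19.9 to 68.5 FPKM (1.78), with RNA of 11.8 and 21.0. SLC16A3, the exporter of lactate in glycolytic cells, was the member with the most RNA in the library labelled transformed, at 409.0 FPKM against 218.1 in its control (0.91). SLC16A1, the lactate and pyruvate carrier, had 19.6 and 26.6 RNA FPKM in proliferation of run 2 and senescence but 87.5 and 193.0 footprint FPKM (1.14). Of 7 other genes of glucose and lactate use, 0 changed 2-fold in RNA-Seq outside senescence, where PFKP, a phosphofructokinase of glycolysis, fell from 106.2 to 30.0 FPKM (-1.82). In Ribo-Seq 2 of the 7 rose in senescence, HK2, a hexokinase (1.03), and TXNIP, an inhibitor of glucose uptake (1.16), and 2 fell, PFKP (-1.59) and LDHA, a lactate dehydrogenase subunit (-1.10).

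About as many zinc carriers rose in footprints in senescence as stayed below 2-fold, with few changes in RNA. Of 17 SLC30 and SLC39 members 8 rose and 0 fell in Ribo-Seq (median 0.97), against 11.8% and 16.8% of all genes, and SLC39A1, SLC39A4 and SLC39A13 were below their control (-0.46, -0.49 and -0.11, named after their values were seen). In RNA-Seq 1 rose and 0 fell (median 0.13), against 7.47% and 12.8% of all genes, and 2 of 14, SLC30A5 and SLC30A7, rose and 0 fell in TE (median 0.75), against 2.38% and 6.16%. The RNA rise was that of SLC39A8, an importer of zinc and manganese, from 2.97 to 10.8 FPKM (1.86). SLC30A5, which loads zinc into the secretory pathway, had nearly level RNA, 19.4 and 19.8 FPKM, and footprints of 10.1 and 25.8 (TE 1.32). SLC39A6 footprints were 39.3 in proliferation of run 2 and 106.6 in senescence (1.44), with RNA of 52.9 and 74.1. SLC39A10, its partner, had RNA of 10.4 and 10.5 FPKM and footprints of 18.7 and 36.5 (0.97). SLC39A7, which releases zinc from the endoplasmic reticulum, remained between 99.5 and 129.1 RNA FPKM in all 6 columns.

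SLC39A14, an importer of zinc and iron, rose in the library labelled transformed from 32.1 to 75.8 RNA FPKM (1.24), while the plasma membrane zinc exporter SLC30A1 fell there from 6.59 to 2.93 (-1.17). Among other zinc genes, 4 of 7 on the list were in the table. The metallothionein MT2A, which binds zinc, had 658.4, 457.9 and 1116 RNA FPKM in the run 1 columns and 469.0, 983.3 and 878.9 in those of run 2. Footprints on MT2A were 1898 FPKM in proliferation of run 2 and 1504 in senescence (TE -1.40). In senescence 0 of the 4 rose and 2, MT1E and MT1X, fell in Ribo-Seq, and 0 rose and 3 fell in TE, with MT2A the third of these. The falls rested on the run 2 control. Its TE was above that of run 1 by 1.98 for MT2A, 2.81 for MT1E and 3.57 for MT1X on the log2 scale. Footprints in proliferation of run 1 were 677.0, 12.6 and 6.5 FPKM, below the 1504, 22.4 and 19.2 of senescence. SLC11A2, the importer of ferrous iron, rose in senescence in Ribo-Seq from 12.7 to 29.3 FPKM (1.20), with RNA of 9.49 and 15.5 FPKM (0.70). Of 6 other iron genes in the table, 1 rose in senescence in Ribo-Seq, TFRC, the transferrin receptor, from 290.9 to 582.8 FPKM. The iron exporter SLC40A1 was not analysed here.

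Nucleotide sugar carriers, which load the Golgi and endoplasmic reticulum for glycosylation, rose in footprints in senescence more often than in RNA. In RNA-Seq 1 of 17 rose, against 7.47% of all genes, but the median of 0.48 was above that of all genes. The 1 that rose was SLC35F5, an orphan named after its value was seen, from 27.5 to 70.6 RNA FPKM (1.36). SLC35A3, which carries UDP-N-acetylglucosamine, had the largest TE rise of any member in senescence (1.81). Its RNA was 4.55 FPKM in proliferation of run 2 and 6.33 in senescence, and its footprints 5.14 and 25.1. SLC35B3, a carrier of the sulfate donor PAPS, had footprints of 1.79, 4.32 and 6.94 FPKM in proliferation, quiescence and pre-senescence, and 6.52, 16.4 and 3.71 in the run 2 columns, with TE rises of 1.60 in pre-senescence and 1.14 in senescence. SLC35E2B, an orphan, had the largest TE rise of pre-senescence (1.78), from 3.75 to 10.9 footprint FPKM, and SLC35A1, the CMP-sialic acid carrier, fell there (-1.27), from 5.37 to 2.48.

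Among the remaining carriers, quiescence raised SLC14A1, the urea channel, from the floor of 1.00 to 4.15 RNA FPKM, at least 4.15-fold, and its footprints from the floor to 9.85. The folate importer SLC19A1 had 11.1 RNA FPKM in proliferation of run 1 and 5.60 in quiescence (-0.99), with 4.90 in proliferation of run 2, and the biotin and pantothenate importer SLC5A6 had 19.6 and 11.9 (-0.71). In pre-senescence SLC37A2, a sugar phosphate exchanger, rose from 3.43 to 10.1 RNA FPKM and from 1.65 to 23.8 footprint FPKM, and it rose in the library labelled transformed from 2.20 to 8.05 RNA FPKM. SLC45A3, a sugar carrier relative known from prostate, also rose in both, from 2.55 to 6.73 and from 2.06 to 7.01 RNA FPKM. SLC44A2, a choline transporter-like protein, fell in pre-senescence from 61.1 to 30.4 RNA FPKM (-1.01). SLC26A6, an anion exchanger, had a TE rise of 1.45 in pre-senescence, while SLC48A1, a heme transporter, had a TE change of -2.00.

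Footprints on SLC48A1 were 29.4 FPKM in proliferation of run 1, 40.8 in quiescence and 6.65 in pre-senescence, but 7.07 in proliferation of run 2, so the pre-senescence level was near that of the other control. SLC22A17, a receptor for lipocalin, was at the floor of 1.00 RNA FPKM in all columns but the library labelled transformed, where it had 8.66, at least 8.66-fold more. SLC4A7, a sodium-bicarbonate importer, had 20.0 footprint FPKM in proliferation of run 2, 69.4 in senescence and 42.5 in the library labelled transformed, with a TE rise of 1.12 in senescence and a change of 0.96 in the latter. SLC9B2, a sodium-proton exchanger relative, had 10.5 and 3.36 footprint FPKM in proliferation of run 2 and the library labelled transformed (-1.64).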

How the data were processed

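Transcript levels (RNA-Seq, 9 samples) and ribosome footprints (Ribo-Seq, 8 samples) were deposited by the authors as FPKM in 1 table of 9699 transcripts and 12 columns. The authors aligned reads with Bowtie (version not given in the sources used here), with a seed of 25 nucleotides for Ribo-Seq, counted unique reads on the longest coding transcript of each gene of Ensembl release 65, used footprints within the coding sequence only, kept transcripts with at least 40 reads in both assays in some condition and set FPKM under 1 to 1. The submitters' processing notes name hg19. The columns for quiescence, pre-senescence RNA-Seq and proliferation of run 1 are the authors' combined values of more than 1 sample, and how they were combined is not given in the sources used here. Columns were taken by their names. Read totals per column are not in the table, and the read totals that the study lists per library were not used here, so no interval is given.

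Log2 ratios were computed with Python 3.11.15, pandas 2.3.3 and NumPy 2.4.6, with a pseudocount of 0, a minimum of 4 FPKM and a 2-fold threshold over the whole table, and figures were drawn with matplotlib 3.10.9. With 1 column per condition no statistical test was run. The step was tested on simulated data. Genes named were, per comparison, the 5 largest RNA rises and falls and the 3 largest TE rises and falls, and a list of 27 carriers of known function, 1 of which has no row here. A few more are named as said. The members and lists were chosen with earlier results of these data known, and the 5 genes that are no carriers were set apart after the table was seen. Alternatives were no minimum, a pseudocount of 1, centring on the median of all genes and the proliferation column of the other run. Promoter sequences came from RefSeq on GRCh38.p14, in which 142 of 168 members had an entry by symbol or synonym. A further change in the cells labelled transformed is not reported here.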

Additional observations from a re-analysis of the deposited data

Results flagged for a closer look

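For 5 carriers, conditions compared with the same control column moved past 2-fold in opposite directions. How many of all genes did so was not counted, so there is no share to set this number against. With 1 column per condition the difference between the conditions was not tested. SLC6A9 had a Ribo-Seq log2 change of 1.05 in quiescence and -1.77 in pre-senescence. SLC16A4 had an RNA-Seq log2 change of 1.78 in senescence and -1.49 in the library labelled transformed. SLC17A5 differed in both assays, with RNA-Seq log2 changes of 1.56 in senescence and -1.29 in the library labelled transformed and Ribo-Seq changes of 2.44 and -1.19. The Ribo-Seq changes of SLC22A18 were 2.18 and -1.06. Those of SLC39A3, a zinc importer named after its values were seen, were 1.09 and -1.26. Its footprints were 10.0 FPKM in proliferation of run 2, 21.4 in senescence and 4.19 in the library labelled transformed.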

How the results depend on the processing

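The choice of control mattered most. Of the 24 counts of members that rose or fell, 14 moved by over 1.5 times against the proliferation column of the other run. In quiescence, falls went from 1 to 3 in RNA-Seq and from 5 to 8 in Ribo-Seq, and TE rises from 0 to 7. In pre-senescence RNA-Seq rises went from 6 to 13 and falls from 4 to 8. In senescence RNA-Seq rises went from 15 to 25 and falls from 11 to 21, Ribo-Seq falls from 10 to 21, TE rises from 18 to 29 and TE falls from 0 to 5. For the library labelled transformed Ribo-Seq rises went from 16 to 27 and falls from 13 to 20, and TE rises from 1 to 4 and falls from 1 to 12. Among the values of named genes that were past 2-fold, those that changed sign with that control were SLC16A4 in quiescence (-0.082 in RNA-Seq and -0.30 in Ribo-Seq), SLC25A36 in quiescence (0.17 in Ribo-Seq), SLC7A11 in pre-senescence (0.21 in Ribo-Seq) and SLC25A36 in the library labelled transformed (-0.45 in TE). Values below 2-fold changed sign as well, among them those of SLC19A1 (-0.99 to 0.19) and SLC25A5 (-0.56 to 0.49) in quiescence in RNA-Seq.

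With no minimum FPKM 6 counts moved, to 2 RNA-Seq falls and 7 TE rises in quiescence, 16 TE rises in pre-senescence, 2 TE falls in senescence, and 2 TE rises and 5 TE falls in the library labelled transformed. A pseudocount of 1 moved 3, to 0 RNA-Seq falls in quiescence, 2 RNA-Seq falls in pre-senescence and 0 TE rises in the library labelled transformed. Centring on the median of all genes moved 4, to 1 TE rise and 2 TE falls in quiescence, 7 Ribo-Seq falls in pre-senescence and 2 TE rises in the library labelled transformed. The cause of these moves was not tested. No paired analysis was possible because the table holds 1 column per condition and run. The table gives FPKM without read counts, so the counting error of low values was not computed.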
